A study of Homo sapiens with 6 samples.

Results

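Very long clusters of IGF2BP3 IR-PAR-CLIP were the clusters of 200 nt or more in the 3 RNase I libraries, with the length taken as cluster end minus cluster start plus 1. A cluster is a stretch of sequence that PARalyzer called from overlapping reads with T-to-C conversions. Clusters can directly adjoin each other, and how far the settings of PARalyzer determine the length of a cluster is not known here. There were 6027 very long clusters among 171179 clusters of the RNase I libraries and 244645 clusters of all 6 libraries. The clusters were selected on their measured length, so that lengths and read counts are given as descriptions without a test.

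The libraries came from HCT116, a human colorectal carcinoma line, of the genotype Tet-OsTIR1-PURO, labelled for 15 h with 4-thiouridine at 100 µM before crosslinking under UV light. IGF2BP3 was precipitated with a polyclonal antibody that in part also recognises the paralog IGF2BP2, and RNase was applied in the lysate and again on the beads. RNase I was used at 0.05/0.05, 0.1/0.025 and 0.05/0.025 U/µL (in-lysate/on-beads), RNase T1 at 1/1 and 0.25/0.25 U/µL, while precipitation with control IgG was combined with RNase I at 0.1/0.025 U/µL. There was 1 library per condition with no replicate, no comparison was tested, and all 95% intervals cover counting error only. Electroelution recovered the RNA for RNase I 0.05/0.05 and RNase T1 1/1, and crushed gel pieces gave it for the other IGF2BP3 libraries, so that gel extraction and RNase concentration cannot be told apart between them.

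IGF2BP3 is an oncofetal RNA-binding protein with RRM and KH domains that binds mature mRNAs in the cytoplasm, chiefly in their 3′UTRs, and is known for stabilizing bound mRNAs and for altering their translation. After crosslinking to a protein, 4-thiouridine is reverse transcribed with a T-to-C conversion, which marks nucleotides near the protein. RNase I cuts RNA with little sequence preference, whereas RNase T1 cuts after guanosines. The colorectal epithelial genes EPCAM, KRT8, KRT18 and KRT19 held clusters in all 3 RNase I libraries and CDH1 in 2 of them, and VIL1, LGALS4, CDX1 and CDX2 held none. None of these 9 genes held a very long cluster, and clusters do not measure expression.

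The sequences below show the nucleotides around the mode of a cluster, the position that PARalyzer gives as its peak, for genes on which the results turn. They are given in hg38, in the direction of the transcript, with the tetramers CATT and CAGT (CAUU and CAGU in RNA) in capitals, since the study named both as motifs of IGF2BP3. They were chosen after the values were seen, and all come from the RNase I 0.05/0.05 library. The first are windows of 30 nt: chr12:88496431-88496460 of KITLG on the minus strand, chr6:36686705-36686734 of CDKN1A on the plus strand, chr17:50381863-50381892 of LRRC59 on the minus strand and chr6:34245517-34245546 of HMGA1 on the plus strand, all within 3′UTRs, and chr12:123596612-123596641 of TMED2 and chr6:63580040-63580069 of PTP4A1, both on the plus strand at the 5′ end of their cluster, in coding sequence and in an annotated intron, respectively.
KITLG: tcagaaCAGTctgccaagaaggaCATTggc
CDKN1A: aaggggaagggacacacaagaagaagggca
LRRC59: gaaacaggatatgaagggaaacaagtagca
HMGA1: ggttacaggaaggcaggaggggtgagtccc
TMED2: caacacaaacagcagagtggtcctttggtc
PTP4A1: tttttttttcctcccagaaagcggcgtgga
Of these 6 windows, 1 held either tetramer, that of KITLG. Longer windows are shown for very long clusters outside 3′UTRs, namely chr6:149378961-149379110 in the coding sequence of TAB2 on the plus strand, chr4:186707054-186707203 in that of FAT1 on the minus strand, chr11:62852466-62852615 in the non-coding RNA SNHG1 on the minus strand, and the whole cluster chr17:32367773-32368005 in the coding sequence of ZNF207 on the plus strand. ZNF207 falls outside the rule for named genes.
TAB2: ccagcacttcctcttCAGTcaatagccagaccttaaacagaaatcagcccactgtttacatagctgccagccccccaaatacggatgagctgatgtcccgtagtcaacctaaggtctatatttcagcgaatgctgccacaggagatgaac
FAT1: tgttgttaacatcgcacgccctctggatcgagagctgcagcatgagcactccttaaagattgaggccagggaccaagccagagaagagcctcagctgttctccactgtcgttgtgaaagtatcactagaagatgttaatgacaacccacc
SNHG1: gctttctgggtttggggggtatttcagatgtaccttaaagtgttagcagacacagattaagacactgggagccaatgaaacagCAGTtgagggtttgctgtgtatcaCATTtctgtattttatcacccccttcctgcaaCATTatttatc
ZNF207: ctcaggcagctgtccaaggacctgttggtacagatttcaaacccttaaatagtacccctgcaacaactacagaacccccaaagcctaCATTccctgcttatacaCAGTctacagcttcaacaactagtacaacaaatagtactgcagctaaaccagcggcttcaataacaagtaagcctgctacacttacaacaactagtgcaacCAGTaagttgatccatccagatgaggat

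Very long clusters were few but held a large part of the reads. The RNase I 0.05/0.05 library had 3801 (4.18% of its 90999 clusters, 95% Wilson interval 4.05% to 4.31%), the 0.1/0.025 library 1247 (2.87% of 43385, 2.72% to 3.04%) and the 0.05/0.025 library 979 (2.66% of 36795, 2.50% to 2.83%). They held 39.4%, 27.0% and 26.4% of the cluster reads and 18.1%, 12.3% and 11.6% of the covered nucleotides, in the same order. With 2362467, 803490 and 670712 reads in clusters, the numbers corresponded to 1609, 1552 and 1460 very long clusters per 1000000 cluster reads. The RNase I 0.05/0.05 library thus had 3.52 times the cluster reads and 3.88 times the very long clusters of the 0.05/0.025 library, and the part of depth in this difference was not tested.

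The median length of a very long cluster was 268 nt with RNase I 0.05/0.05, 254 nt with 0.1/0.025 and 257 nt with 0.05/0.025, and the longest were 1972, 1235 and 1111 nt. Of 500 nt or more there were 342, 63 and 56, and of 1000 nt or more 42, 4 and 2. The RNase T1 1/1 library had 76 clusters of 200 nt or more (0.127% of 59873), the longest 611 nt, and the RNase T1 0.25/0.25 library had 26 (0.192% of 13568), the longest 483 nt. None of the 25 IgG clusters reached that length (95% Wilson interval 0% to 13.3%), and the longest had 107 nt.

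**Figure D1:**
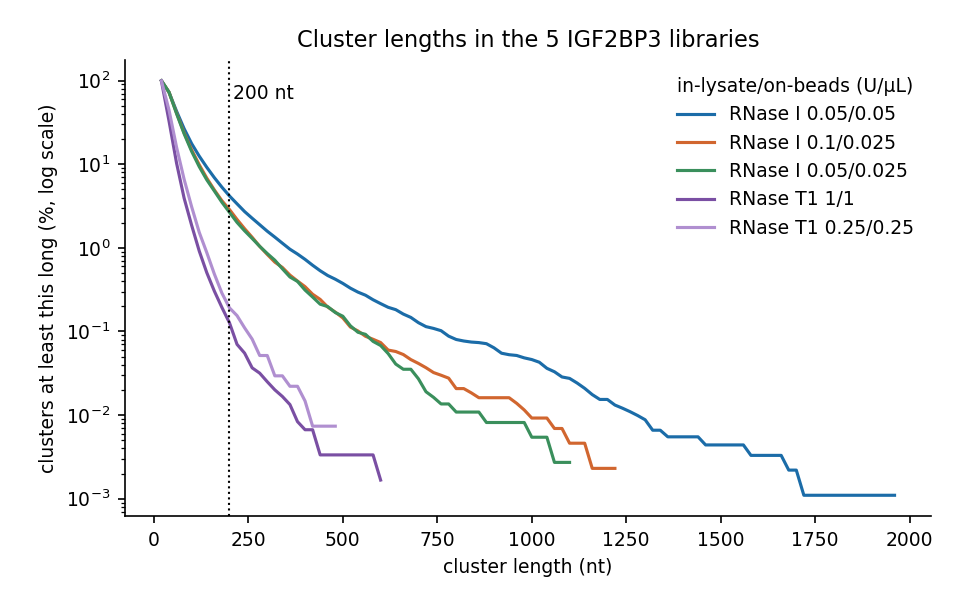
Percentage of the clusters of each IGF2BP3 library (log scale) that are at least as long as the length on the x axis (nt); the dotted line marks 200 nt. At 200 nt the curves of the 3 RNase I libraries lie between 2.66% and 4.18% and those of the 2 RNase T1 libraries at 0.127% and 0.192%.

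The values on both sides of the limit were as follows. In the RNase I 0.05/0.05 library the 214 clusters of 200 to 204 nt had a median of 70 reads and the 231 clusters of the 5 nt below the limit a median of 71, with 44.5% and 45.3% of their thymidines converted. Among those just inside the limit with the most reads were the clusters of MRPS21, which encodes a protein of the mitochondrial ribosome (200 nt, 239 reads), and of CD44, a hyaluronan receptor (200 nt, 217 reads). Among those 1 nt under the limit were the clusters of the zinc finger gene ZNF644 (169 reads) and of the translation initiation factor gene EIF5 (142 reads). In the 0.1/0.025 library NOLC1 and ZMAT3 lay inside with 100 and 79 reads and AIDA and HNRNPA3 outside with 91 and 78. In the 0.05/0.025 library RAB11A and SRSF9 lay inside with 162 and 126 reads and EIF4G2 and TMEM123 outside with 109 and 106. The clusters of 200 to 204 nt had a median of 64 reads with 0.1/0.025 and 67 with 0.05/0.025, against 57 and 57 in the 5 nt below the limit. Of their thymidines, 40% and 42.5% were converted, against 37.8% and 37.9%.

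Very long clusters were denser in reads and in converted thymidines than shorter ones. At the median, their conversion events per read differed little from those of shorter clusters. Conversions made up a slightly smaller proportion of their conversion and non-conversion events. The median read count of a very long cluster was 134, 108 and 115 in the 3 libraries, against 9, 8 and 8 for shorter clusters. Per nucleotide the medians were 0.477, 0.410 and 0.423 reads, against 0.182, 0.167 and 0.168. Of the thymidines of a very long cluster, a median of 52.0%, 48.1% and 46.0% showed a conversion, against 29.8%, 27.3% and 25.0% in shorter clusters. A position with more reads has more chances to show a conversion, and the part of read depth in this difference was not tested.

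The median number of conversion events per read was 0.650, 0.669 and 0.619 in very long clusters and 0.632, 0.667 and 0.600 in shorter ones. From 50 nt upwards it fell slightly with length in the RNase I 0.05/0.05 library, to 0.647 at 300 nt or more. Its spread was smaller in very long clusters, with SDs of 0.068, 0.076 and 0.078 against 0.185, 0.189 and 0.193. More than 0.5 events per read, part of the criterion the study set for targets, were found in 98.7%, 98.3% and 94.5% of very long clusters and in 73.1%, 74.8% and 68.3% of shorter ones. Clusters from 150 nt to under 200 nt had SDs of 0.094, 0.101 and 0.101. Of them, 96.3%, 96.0% and 91.8% passed 0.5 events per read. The part of read count in the spread and in these proportions was not tested. Length and read count were correlated over the clusters of a library, with a Spearman rho of 0.72, 0.70 and 0.68 (n = 90999, 43385 and 36795 clusters of the same library), given as a description. Length and events per read had a rho of 0.21, 0.23 and 0.20 over all clusters, and of -0.04, -0.10 and -0.07 within very long clusters.

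**Figure D2:**
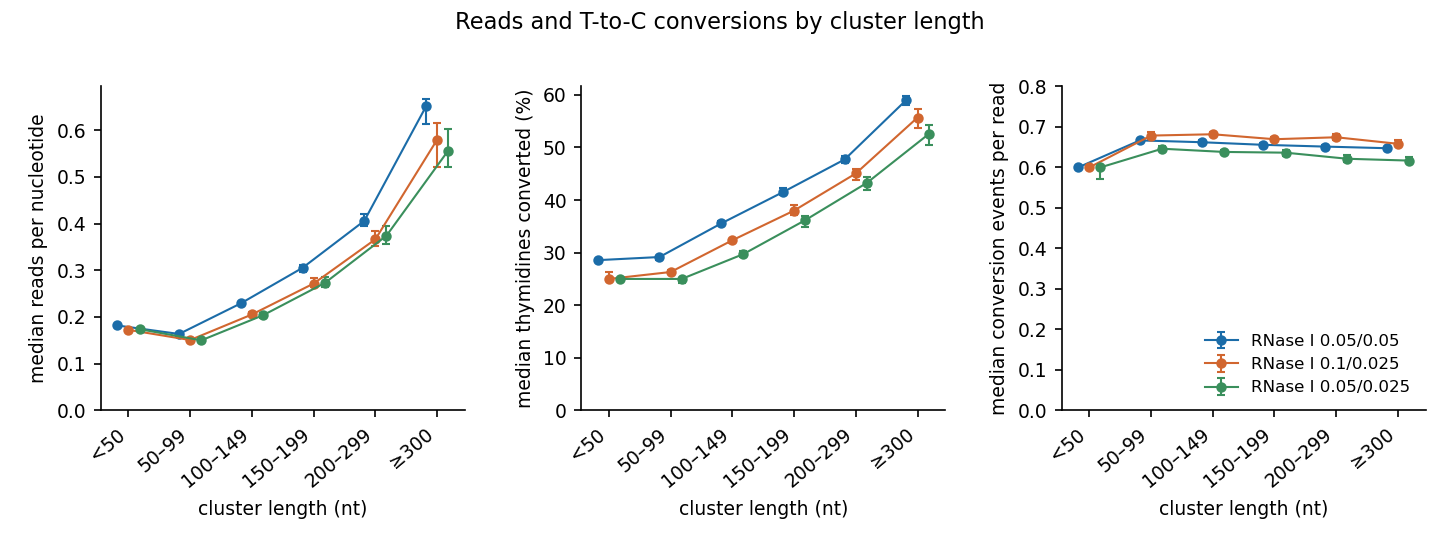
Median reads per nucleotide, median percentage of thymidines with a conversion and median conversion events per read (y axes) of clusters in 6 length classes (x axis, nt) in the 3 RNase I libraries; bars are 95% order-statistic intervals for counting error only. In the RNase I 0.05/0.05 library the reads per nucleotide reach 0.651 and the converted thymidines 59.1% at 300 nt or more, while the events per read lie at 0.647.

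Very long clusters also lay close to other clusters. The gap to the nearest cluster of the same library and strand had a median of 10 nt with RNase I 0.05/0.05, 13 nt with 0.1/0.025 and 14 nt with 0.05/0.025, against 36, 50 and 57 nt for shorter clusters. A gap of 20 nt or less was found for 67.9%, 62.2% and 57.4% of very long clusters. Shorter clusters had such a gap in 40.2% with 0.05/0.05 and 34.8% with 0.1/0.025. The gap narrowed with length below the limit already. Clusters from 150 nt to under 200 nt had median gaps of 14, 18 and 20 nt, and 58.2%, 53.5% and 50.1% of them had a gap of 20 nt or less.

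The longest clusters of the 3 libraries lay in 3′UTRs, in coding sequence and on mitochondrial transcripts. KITLG encodes the ligand of the receptor tyrosine kinase KIT. Its locus at chr12:88494480-88496470 on the minus strand held 1 cluster of 1972 nt with 5227 reads in the RNase I 0.05/0.05 library, in which 80.9% of the thymidines were converted. The RNase I 0.1/0.025 library had 6 clusters there, the longest of 848 nt, with 2175 reads in all, and the 0.05/0.025 library 8 clusters, the longest of 622 nt, with 2057 reads.

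These shorter clusters still covered 95.3% and 94.6% of the KITLG locus, as against 74.99% under 18 clusters with RNase T1 1/1 and 57.0% under 13 clusters with RNase T1 0.25/0.25. The cluster of 1972 nt held 17 CAUU and 10 CAGU. CDKN1A encodes the CDK inhibitor p21. Its locus at chr6:36685734-36687354 on the plus strand, which takes in the whole canonical 3′UTR of 1535 nt, held 2 clusters in each RNase I library, with the longest of 1304, 973 and 983 nt and 10030, 4619 and 3781 reads.

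Of CDKN1A thymidines, 94.98%, 88.7% and 83.4% were converted. The split between the 2 clusters lay near the 5′ end in the RNase I 0.05/0.05 library and further downstream in the other two. With RNase T1 1/1 the CDKN1A locus was covered to 90.9% by 4 clusters, of which 1 had 611 nt, the longest cluster of both RNase T1 libraries. An IgG cluster of 31 nt with 6 reads also lay there.

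TMED2 encodes a cargo receptor of the early secretory pathway. Its locus at chr12:123596612-123597851 on the plus strand ran from the coding sequence into the 3′UTR and held clusters of up to 1240, 1235 and 658 nt with 4793, 2587 and 2197 reads. LRRC59, which encodes a membrane protein of the endoplasmic reticulum, had the locus with the greatest length in whichever library was shortest, at chr17:50381251-50382438 on the minus strand with clusters of 1174, 1143 and 1111 nt. Its reads numbered 3001, 1306 and 1113, and the longest cluster with RNase T1 1/1 had 238 nt.

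TXNDC5 and P4HB encode protein disulfide isomerases of the endoplasmic reticulum. TXNDC5 held clusters of up to 1671, 740 and 1059 nt over a canonical 3′UTR of 1630 nt, and P4HB of up to 887, 696 and 740 nt over one of 849 nt. H3-3B, a gene of the replication-independent histone H3.3, reached 1080, 1081 and 686 nt. DCBLD2, which encodes a transmembrane receptor-like protein, reached 1023, 775 and 789 nt. ARPP19, which encodes an inhibitor of the phosphatase PP2A, reached 956, 787 and 872 nt. The chromatin protein gene HMGA1 reached 819, 678 and 650 nt with 5244, 2795 and 2285 reads at chr6:34245408-34246226 on the plus strand.

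Of the 10 loci that were longest in all 3 libraries, by the library in which each was shortest, 9 were those of CDKN1A, TMED2, LRRC59, TXNDC5, P4HB, H3-3B, DCBLD2, ARPP19 and HMGA1. TAB2 was the remaining one. This gene encodes an adaptor of the kinase TAK1, and its locus at chr6:149378326-149379463 on the plus strand lay wholly in coding sequence. The clusters there had up to 1138, 994 and 631 nt and 1333, 651 and 414 reads in all.

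**Figure D3:**
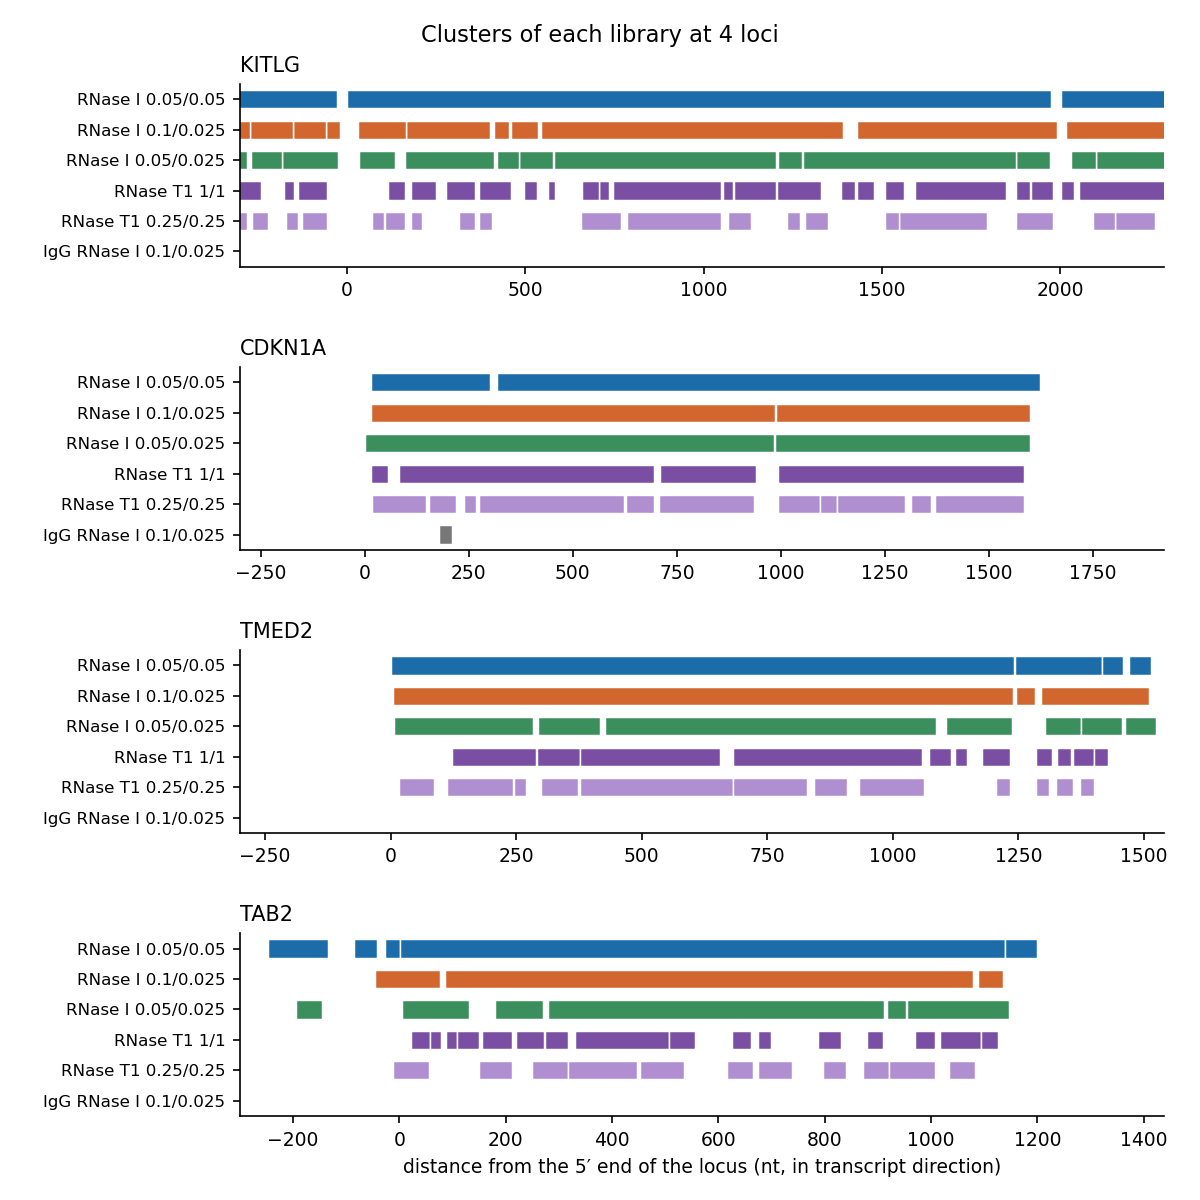
Clusters of the 6 libraries (rows, coloured bars) at the loci of KITLG, CDKN1A, TMED2 and TAB2, drawn to scale along the transcript (x axis, nt from the 5′ end of the locus, negative upstream). KITLG shows 1 cluster of 1972 nt with RNase I 0.05/0.05 where the other RNase I libraries have 6 and 8 clusters, and CDKN1A shows 2 clusters in each RNase I library.

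The very long clusters with the most reads included further genes. ERRFI1 encodes a feedback inhibitor of EGFR, and its cluster of 1036 nt had 5506 reads with RNase I 0.05/0.05, where the other libraries had 5 and 4 clusters with 1310 and 1304 reads. EEF2 encodes translation elongation factor 2, and its locus held 5516, 2388 and 1989 reads in clusters of up to 687, 421 and 542 nt. PTP4A1, a tyrosine phosphatase gene, held 3877, 2415 and 1982 reads, and CYB5B, a gene of cytochrome b5, held 4164, 2368 and 2089.

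PABPC1, which encodes a poly(A)-binding protein, and the tubulin gene TUBA1B were among the genes with the most reads in the 0.05/0.025 library. The cluster of PABPC1 lay in coding sequence and had 278, 277 and 278 nt with 3415, 2100 and 2227 reads, and 63.1% of its 30-nt words occurred in transcripts of another gene, best PABPC3. The cluster of TUBA1B had 201, 198 and 203 nt, so that in the 0.1/0.025 library it fell just under the limit.

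Most very long clusters overlapped a 3′UTR. The proportion was 86.4% (95% Wilson interval 85.3% to 87.5%) with RNase I 0.05/0.05, 87.3% (85.4% to 89.1%) with 0.1/0.025 and 84.7% (82.3% to 86.8%) with 0.05/0.025, against 57.7%, 65.2% and 64.0% of shorter clusters. The differences were 28.7 (Newcombe interval 27.5 to 29.8), 22.1 (20.1 to 23.9) and 20.7 (18.3 to 22.9) percentage points. As a longer cluster meets more features by its length alone, the feature at the mode nucleotide was also taken, and it was a 3′UTR for 81.0%, 83.2% and 80.5% of very long clusters against 56.8%, 64.4% and 63.0% of shorter ones. Both proportions rose with length among shorter clusters too. From 150 nt to under 200 nt, 78.2%, 81.1% and 81.8% overlapped a 3′UTR, and the mode lay in one for 75.2%, 78.8% and 78.8%. With coding sequence placed before 3′UTR in the assignment, the proportions of very long clusters were 73.4%, 75.4% and 72.7%.

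Coding sequence without a 3′UTR was assigned to 8.92%, 8.42% and 9.50% of very long clusters, against 21.7%, 17.2% and 18.2% of shorter ones. The difference was -12.8 (-13.7 to -11.8), -8.75 (-10.2 to -7.04) and -8.65 (-10.4 to -6.62) percentage points. It depended on the order of the features, as with coding sequence placed first it was -2.95 (-4.27 to -1.57), -0.11 (-2.29 to 2.24) and -0.19 (-2.68 to 2.53) points. Introns held 22, 7 and 6 very long clusters, 5′UTRs 6, 0 and 2, non-coding exons 88, 30 and 29, and 61, 16 and 20 lay outside annotated genes.

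Both coding sequence and 3′UTR, and so a stop codon region, were overlapped by 13.02%, 11.95% and 11.95% of very long clusters against 3.22%, 3.31% and 3.48% of shorter ones. An annotated transcript end lay under 26.3%, 26.4% and 28.5% of them against 6.37%, 6.70% and 7.13%. Both proportions are open to the length of the cluster. Nucleotides outside annotated exons, clusters in introns and outside genes included, were present in 5.71%, 4.57% and 5.52% of very long clusters against 15.8%, 13.1% and 12.9% of shorter ones. Clusters that overlapped an exon but ran beyond it went the other way, with 3.53%, 2.73% and 2.86% of very long clusters against 2.44%, 1.62% and 1.84% of shorter ones, a proportion that length also raises.

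**Figure D4:**
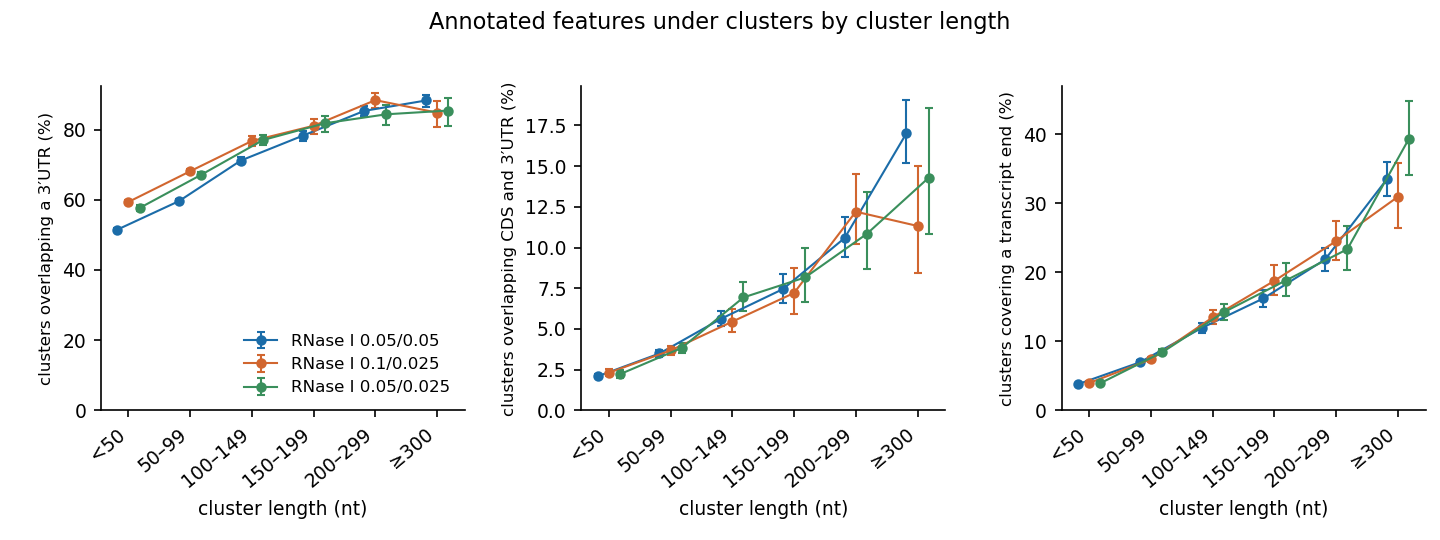
Percentage of clusters that overlap a 3′UTR, that overlap both coding sequence and 3′UTR, and that cover an annotated transcript end (y axes) in 6 length classes (x axis, nt) in the 3 RNase I libraries; bars are 95% Wilson intervals for counting error only. At 300 nt or more the 3′UTR proportion is 88.3%, 84.8% and 85.4% in RNase I 0.05/0.05, 0.1/0.025 and 0.05/0.025.

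A very long cluster usually covered a small part of its 3′UTR. Among genes with a very long cluster there, the canonical 3′UTR was covered by very long clusters to a median of 21.4% in 1959 genes (20.3% to 22.8%), 17.2% in 766 genes and 19.2% in 617 genes. At least 50% was covered in 404, 116 and 116 genes. The 3′UTRs had median lengths of 2127, 2067 and 1874 nt. A single very long cluster was found in 63.1%, 73.5% and 75.9% of these genes.

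Within canonical 3′UTRs of a single exon, the mode of 29.4%, 30.5% and 29.3% of very long clusters lay in the first 20% after the stop codon, against 25.2%, 27.0% and 27.4% of shorter ones. The last 20% held 13.8%, 11.1% and 12.6%, against 16.0%, 15.4% and 15.2%. The median length of the exon under a very long cluster was 2788 nt with RNase I 0.05/0.05 against 2398 nt for shorter clusters, but 2394 against 2520 nt with 0.1/0.025 and 2146 against 2314 nt with 0.05/0.025, so that the direction differed between libraries.

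Within coding sequence, FAT1 stood out. FAT1 encodes a giant protocadherin, and with 18 very long clusters in the RNase I 0.05/0.05 library it held more than any other gene. Of these, 15 lay wholly in coding sequence, with 7794 reads. The longest, of 1567 nt, had 1670 reads, where the 0.1/0.025 library had 9 clusters of up to 243 nt with 380 reads and the 0.05/0.025 library 12 clusters of up to 360 nt with 424 reads.

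NFAT5, a gene of an osmosensitive transcription factor, followed with 15 very long clusters in that library, then CBX5, a gene of heterochromatin protein 1, with 13, and CD44 and ZBTB20, the latter a transcriptional repressor gene, with 11 each. FAT1 held 9 and 11 and NFAT5 8 and 6 in the 0.1/0.025 and 0.05/0.025 libraries. The coding cluster of POM121, which encodes a nucleoporin, had 1047 nt with RNase I 0.1/0.025, and 89.98% of its 30-nt words occurred in transcripts of other genes, best POM121B, so that its reads cannot be placed with certainty.

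Most very long clusters of the deepest library were shorter in the other RNase I libraries. Joined by overlaps of at least 1 nt on the same strand, the 6027 clusters formed 3888 loci. A very long cluster was present in all 3 libraries at 590 loci (15.2%, 95% Wilson interval 14.1% to 16.3%) and in the RNase I 0.05/0.05 library alone at 2485 (63.9%). Of the 1134 loci of the 0.1/0.025 library 91.1%, and of the 882 loci of the 0.05/0.025 library 93.7%, were also very long in at least 1 other library, against 32.98% of the 3708 loci of the 0.05/0.05 library.

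The very long clusters of the deepest library mostly lay under clusters of the other RNase I libraries, those that were very long there included. Of the very long clusters of RNase I 0.05/0.05, 97.4% overlapped a cluster of the 0.1/0.025 library and 96.0% one of the 0.05/0.025 library. At least 50% of the nucleotides were covered for 79.7% (78.4% to 80.9%) and 71.3% (69.8% to 72.7%). They held 2 or more clusters there in 71.9% and 70.0%. Among the 3410 clusters of RNase I 0.05/0.05 from 150 nt to under 200 nt, 87.6% and 81.8% overlapped a cluster there. At least 50% of the nucleotides were covered for 58.1% and 49.1%, and 38.4% and 33.5% held 2 or more clusters. All these proportions were thus lower in shorter clusters. A longer cluster meets more clusters by its length alone, and the part of length was not tested. All 1247 and 979 very long clusters of the other libraries overlapped a cluster of the 0.05/0.05 library. So did all 1262 and 1053 of their clusters from 150 nt to under 200 nt.

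The RNase T1 libraries, which the choice of the clusters did not use, covered less of the very long clusters of RNase I 0.05/0.05. With RNase T1 1/1, which had more cluster reads (1157194) than the 0.1/0.025 and 0.05/0.025 libraries, 94.7% of the very long clusters of RNase I 0.05/0.05 overlapped a cluster, but at least 50% of the nucleotides were covered for 36.7% (35.2% to 38.3%). They held 2 or more RNase T1 1/1 clusters in 77.7% and 3 or more in 50.2%. With RNase T1 0.25/0.25, which had 182448 cluster reads, 66.1% overlapped a cluster and 11.0% were covered to at least 50%. The very long clusters of the other RNase I libraries were covered more often. RNase T1 1/1 covered at least 50% in 66.1% (0.1/0.025) and 70.7% (0.05/0.025) of them, and RNase T1 0.25/0.25 in 39.2% and 45.05%. These proportions also go with length. Of the RNase I 0.05/0.05 clusters from 150 nt to under 200 nt, 79.3% overlapped an RNase T1 1/1 cluster and 40.4% held 2 or more. At least 50% of the nucleotides were covered for 22.5%. With RNase T1 0.25/0.25, 36.5% of these shorter clusters overlapped a cluster and 5.48% were covered to at least 50%.

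**Figure D5:**
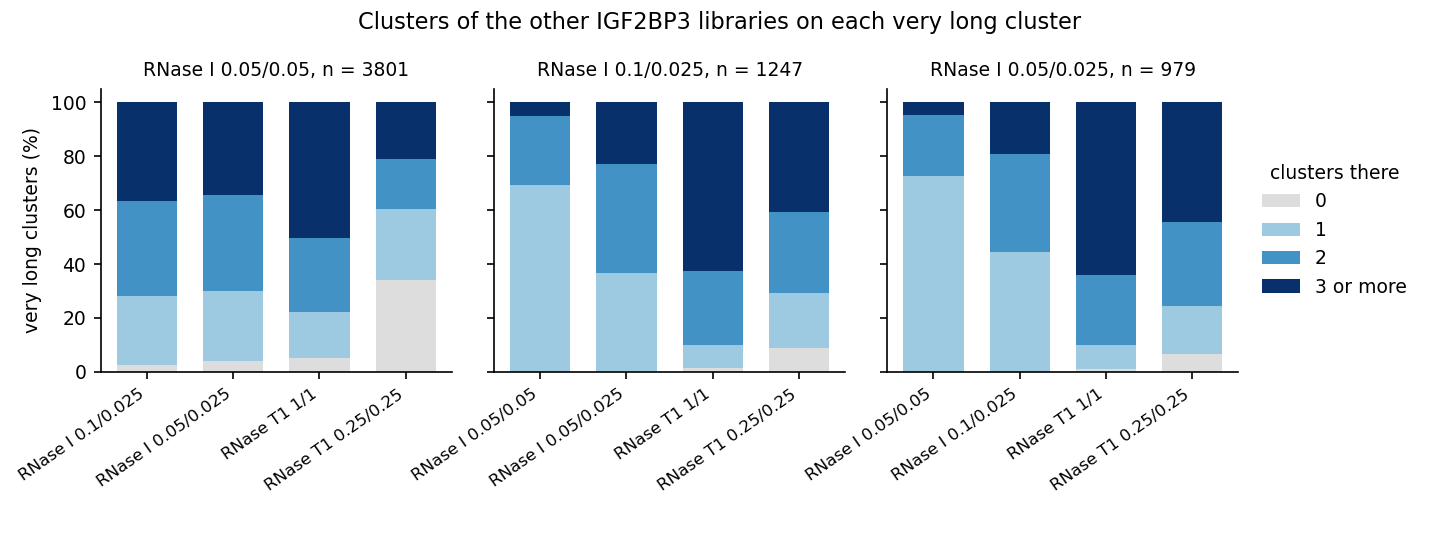
Percentage of the very long clusters of each RNase I library (panels, with n) that hold 0, 1, 2 or 3 or more clusters of each other IGF2BP3 library (stacked bars). Of the 3801 very long clusters of RNase I 0.05/0.05, 77.7% hold 2 or more clusters of RNase T1 1/1, and 5.13% of the 1247 of RNase I 0.1/0.025 hold 3 or more clusters of RNase I 0.05/0.05.

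Few very long clusters held an IgG cluster, though a larger proportion than of the next shorter clusters. Of its 25 clusters, 12 with 110 of its 324 reads lay on a very long cluster of at least 1 RNase I library. Conversely, 9 of 3801, 8 of 1247 and 10 of 979 very long clusters held an IgG cluster (0.237%, 0.642% and 1.021%). In the 0.05/0.05 library they belonged to ACTG1, CDKN1A, CYB5B, HMGA1, MT-RNR1, PSMD12, PTP4A1 and TUBA1B. For none of them was as much as 50% of the nucleotides covered by IgG clusters. With 25 IgG clusters of 1109 nt in all, the longest of 107 nt, both these counts and this cover were limited in advance. Among clusters from 150 nt to under 200 nt, 1 of 3410, 2 of 1262 and 1 of 1053 held an IgG cluster (0.029%, 0.158% and 0.095%). A longer cluster meets more clusters by its length, and the part of length and reads was not tested.

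The tetramers named by the study were more frequent in very long clusters than in the exon sequence around them. The study had found both in clusters of this series, CAGU with RNase I and CAUU with RNase T1. Clusters are also called from conversions at uridines, which both tetramers contain. The frequencies are therefore given as a description. The flanks were exon sequence within 1000 nt on both sides that lay under no cluster of the library. CAUU occurred 0.720 (95% Poisson interval 0.705 to 0.735), 0.771 (0.743 to 0.800) and 0.759 (0.727 to 0.791) times per 100 nt, against 0.398, 0.414 and 0.437 in the flanks, a ratio of 1.81, 1.86 and 1.74. CAGU occurred 0.629, 0.646 and 0.641 times per 100 nt, a ratio of 1.45, 1.45 and 1.38. The dinucleotide CA, part of both, occurred 7.81, 7.94 and 7.82 times, a ratio of 1.27, 1.28 and 1.25.

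Shorter clusters differed from their flanks to a similar extent. Their CAUU frequency was 0.778, 0.872 and 0.855 per 100 nt, higher than in very long clusters, and their ratios to the flanks were 1.73, 1.80 and 1.76. Guanosine made up 19.4%, 18.5% and 18.6% of the nucleotides of very long clusters against 23.5%, 23.1% and 22.9% of the flanks, and uridine 30.8%, 31.6% and 31.7% against 28.4%, 28.9% and 29.1%. At least 1 CAUU was present in 84.6%, 85.6% and 85.8% of very long clusters and in 36.5%, 39.3% and 38.6% of shorter ones, proportions that the length itself raises.

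Very long clusters were spread over many genes. Of the genes with a cluster on an exon, 20.4% held a very long cluster with RNase I 0.05/0.05 (2256 of 11080), 11.6% with 0.1/0.025 (884 of 7605) and 9.91% with 0.05/0.025 (722 of 7282). These proportions are the background for the gene lists below, over which no test was run. The lists are given as the number of genes with a very long cluster among those with a cluster on an exon, in the order 0.05/0.05, 0.1/0.025 and 0.05/0.025.

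Genes of the 14-3-3 adaptor proteins, which bind phosphorylated partners, counted 6, 4 and 5 of 7. YWHAE, YWHAG, YWHAQ and YWHAZ held a very long cluster in all 3 libraries. YWHAQ reached 908, 376 and 505 nt with 1649, 814 and 801 reads at its locus, and YWHAE 810, 499 and 277 nt with 1629, 677 and 687 reads. SFN, the remaining member of the family, held clusters below 200 nt.

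Among mRNAs that are established IGF2BP targets the counts were 12 of 16, 9 of 14 and 7 of 15. CCND1, which encodes cyclin D1, CD44, the growth factor gene HDGF, HMGA1, HMGA2 and the glucose transporter gene SLC2A1 held a very long cluster in all 3 libraries. CCND1 did so at 3 loci, of which the longest reached 1071, 323 and 292 nt with 2012, 523 and 418 reads. HMGA2 reached 770, 678 and 402 nt with 1345, 626 and 463 reads.

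Among glycolytic enzymes and glucose transporters 13 of 18, 8 of 17 and 7 of 16 genes held one. ENO1, GPI, LDHA, PGAM1, PGK1 and SLC2A1 did so in all 3 libraries. LDHA, which encodes a subunit of lactate dehydrogenase, reached 433, 424 and 435 nt with 1311, 747 and 674 reads, and the lengths of the 3 libraries lay within 11 nt. Of the genes of hnRNP and SR proteins, which package and splice pre-mRNA, 18, 13 and 10 of 27 held one. HNRNPC, HNRNPF, HNRNPR, PCBP1, PCBP2, SRSF10 and SRSF6 did so in all 3 libraries, and PCBP1 reached 686, 292 and 375 nt.

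Among amino acid transporters the counts were 5 of 10, 4 of 9 and 3 of 9. SLC7A5, which encodes the light chain of the transporter LAT1, reached 1314, 274 and 312 nt at 1 of its loci, and SLC38A2, a transporter gene of neutral amino acids, 1281, 439 and 300 nt. Among actins, tubulins and their regulators the counts were 6 of 14, 5 of 13 and 6 of 13, with ACTG1, PFN1, TUBA1B and VCL in all 3 libraries.

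The m6A writers, erasers and YTH readers counted 7 of 11, 4 of 11 and 3 of 10, with the demethylase gene ALKBH5 and the reader genes YTHDF2 and YTHDF3 in all 3 libraries. Subunits and partners of the CCR4-NOT deadenylase counted 5 of 14, 4 of 14 and 2 of 12, with BTG2 and CNOT7 in all 3. Cyclins, CDKs and CDK inhibitors counted 4 of 14, 4 of 14 and 3 of 16, with CCND1, CDK6 and CDKN1A in all 3.

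The cytosolic ribosomal protein genes counted 17 of 76, 6 of 73 and 5 of 75, or 22.4% (14.5% to 32.9%), 8.22% (3.82% to 16.8%) and 6.67% (2.88% to 14.7%), near the background. RPL13A, RPL15, RPL22, RPL23A and RPS23 held one in all 3 libraries. Epithelial adhesion and keratin genes counted 9 of 16, 3 of 15 and 2 of 16, with CD44 and the integrin gene ITGB1 in all 3. The microRNA processing and silencing factors counted 3 of 10, 0 of 9 and 0 of 9, where AGO1, AGO2 and TNRC6B held the 3 of the first library. Among the IGF2BP paralogs, IGF2BP2 held one in the 0.05/0.05 library only. These genes, the long non-coding RNAs of the 0.05/0.05 library other than SNHG1, and PSMD12, a proteasome gene, are named outside the rule, after their values were seen.

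Among long non-coding RNAs the counts were 4 of 10, 1 of 8 and 1 of 7. SNHG1, the host of small nucleolar RNAs, held clusters of 669, 515 and 685 nt with 1995, 1336 and 1209 reads at chr11:62851994-62852678 on the minus strand. In the 0.05/0.05 library NORAD, OIP5-AS1 and TUG1 also held one.

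The mitochondrially encoded mRNAs and rRNAs had the highest proportion of the 16 lists in each library, with 14, 13 and 11 of 15. Genes were counted by any overlap with an exon, so that 1 cluster can count for several adjoining genes. The cluster of 1715 nt on MT-ND4 overlapped 4 annotated genes, and the part of this in the proportion was not tested. On the mitochondrial chromosome, whose genes lie side by side in long primary transcripts, there were 18, 22 and 20 very long clusters, against 70, 78 and 75 shorter ones. The longest covered MT-ND4 and reached 1715 nt with 2468 reads with RNase I 0.05/0.05, where the other libraries had 6 clusters each. Their median events per read were 0.573, 0.517 and 0.464, below the medians of all very long clusters, and 72.2%, 63.6% and 35% passed 0.5 events per read. MT-ND1 had the fewest of these, with 0.18, 0.072 and 0.067 events per read at 3179, 3872 and 4577 reads. IgG clusters lay on MT-RNR1. Of the 30-nt words of the longest clusters on MT-ND4 and MT-CO1, 21.2% and 65.6% occurred in transcripts of other genes, best the nuclear copies MTND4P12 and MTCO1P12, so that the placement of these reads is uncertain in part.

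Many very long clusters outside annotated genes were near-copies of mRNAs, as were many shorter ones there. Each cluster was cut into words of 30 nt, which were looked up in the transcripts of all other genes. At least 50% of the words occurred there for 34 of 61, 14 of 16 and 18 of 20 very long clusters outside genes, but for 29 of 3285, 12 of 1089 and 7 of 829 of those on 3′UTRs. Reads of such sequences cannot be placed with certainty. For clusters outside genes on chromosomes 17 and X, all words occurred in transcripts of EIF4E, which encodes the cap-binding protein, and of FAM3C, which encodes a secreted protein. Both were chosen after their values were seen. The 30 nt at their mode, which lay at the 5′ end, at chr17:49423991-49424020 on the minus strand and chrX:23076835-23076864 on the plus strand, were as follows.
EIF4E near-copy: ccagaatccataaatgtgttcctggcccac
FAM3C near-copy: gagctatgtgtaaatattttaagagcatgc
The cluster with the EIF4E sequence had 376 nt and 843 reads and that with the FAM3C sequence 259 nt and 589 reads in the RNase I 0.05/0.05 library. In all, 54 very long clusters had the same sequence as another one of their library.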

How the data were processed

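Each deposited file lists the clusters of 1 library with their counts of reads and of conversion events, as PARalyzer gave them, with no normalization by the authors. Before that step the authors had demultiplexed, trimmed, aligned to GRCh38 and deduplicated the reads (bcl2fastq 2.20.0.422, Trimmomatic 0.30, Bowtie 0.12.7 and UMI-tools 1.1.1 per the labels). Features, overlaps and sequence content were computed from these files in Python 3.11.15 (matplotlib 3.10.9, numpy 2.4.6, pandas 2.3.3, pysam 0.24.0, scipy 1.17.1), with samtools 1.23.1 for sequence and bedtools 2.31.1 for intervals. All 244645 cluster sequences were identical to GRCh38 at their position. A cluster took its feature from GENCODE release 44 on its own strand by an overlap of at least 1 nt. The order was 3′UTRs, coding sequence, 5′UTRs, non-coding exons and introns. Non-coding exons were those of transcripts not typed as protein-coding, also where their gene is protein-coding. The functions for intervals, for joining clusters into loci and for counting short sequence words were tested on simulated data, and the other steps were not.

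Reads in clusters served as depth, although they are fewer than the reads of the library. With 1 library per condition no test was run, and intervals (Wilson, Newcombe, Poisson, order statistics) cover counting error only. The clusters and gene lists were chosen with earlier results of these data known. Named were the 5 longest clusters and the 5 with the most reads per library, the 10 loci with the greatest shortest length over 3 libraries, the 5 genes with the most very long clusters in RNase I 0.05/0.05, list genes with one in all 3 libraries, and 2 clusters on each side of the limit, except some that are not reported here. Alternatives changed the length limit to 150 or 300 nt, set a minimum of 20 reads, and changed the feature order, the transcripts, the overlap and the gene assignment.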

Additional observations from a re-analysis of the deposited data

How the results depend on the processing

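Of 134 values recomputed under alternatives, 66 stayed within counting error (for counts, within 1.5 times) and 68 did not; none concerned a test, and values are given in the order RNase I 0.05/0.05, 0.1/0.025 and 0.05/0.025. A lower or higher length limit changes the clusters by construction. From 150 nt there were 7211, 2509 and 2032 clusters and from 300 nt 1440, 362 and 315. From 150 nt, 3′UTRs were overlapped by 82.5% and 84.2% in the first 2 libraries, both coding sequence and 3′UTR by 10.4%, 9.57% and 9.99%, 47.0%, 42.6% and 40.7% of thymidines were converted, and there were 0.383, 0.335 and 0.336 reads per nucleotide. CA occurred 7.86 and 8.04 times per 100 nt in the first 2 libraries, events per read were 0.627 with 0.05/0.025, and 30.4%, 19.4% and 17.6% of genes held such a cluster. From 300 nt, 3′UTRs were overlapped by 88.3% and 84.8% in the first 2 libraries, both features by 17.0% with 0.05/0.05 and 14.3% with 0.05/0.025, 59.1%, 55.7% and 52.5% of thymidines were converted, and there were 0.651, 0.580 and 0.556 reads per nucleotide. With 0.05/0.05 and 0.05/0.025, CAUU occurred 0.693 and 0.710 and CAGU 0.613 and 0.597 times per 100 nt, CA occurred 7.70 times with 0.05/0.025, events per read were 0.658 with 0.1/0.025, 9.86%, 4.01% and 3.82% of genes held such a cluster, and 11.5% of loci did in all 3 libraries. The proportion of RNase I 0.05/0.05 clusters covered to at least 50% was, from 150 nt, 69.5% by RNase I 0.1/0.025, 60.8% by 0.05/0.025, 30.01% by RNase T1 1/1 and 8.38% by RNase T1 0.25/0.25, and from 300 nt 90.6%, 83.96%, 50.4% and 15.9%. With any overlap counted it was 97.4%, 96.0%, 94.7% and 66.1%. For 3′UTRs, coding sequence first gave 73.4%, 75.4% and 72.7%, the mode nucleotide 81.0%, 83.2% and 80.5%, canonical transcripts 85.0% with 0.05/0.05, and leaving out near-copies, an alternative added after the data were seen, 88.4%, 89.8% and 89.3%. With canonical transcripts, 10.8%, 8.58% and 9.40% overlapped both coding sequence and 3′UTR. A minimum of 20 reads moved no value beyond counting error, as 6024 of the 6027 clusters passed it. No paired analysis was possible because there was 1 library per condition. Between RNase I 0.05/0.05 and the other RNase I libraries, depth, RNase concentration and gel extraction cannot be told apart.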

Other observations

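The RNase T1 libraries had long clusters of their own, mostly at places with a very long RNase I cluster. Of the 76 clusters of 200 nt or more with RNase T1 1/1, 75 overlapped a very long cluster of at least 1 RNase I library, and 53 overlapped very long clusters of all 3. Of the 26 with RNase T1 0.25/0.25, 26 and 24 did so. A longer cluster overlaps others more easily by its length, and the proportion over all RNase T1 clusters is not given here. The longest lay on CDKN1A (611 and 590 nt, 1427 and 1386 reads, RNase T1 1/1), followed by PAICS, which encodes an enzyme of purine synthesis (483 nt, 727 reads, RNase T1 0.25/0.25), KITLG (435 nt, 814 reads, RNase T1 1/1) and HMGA1 (433 nt, 942 reads, RNase T1 1/1). A 3′UTR was overlapped by 72 and 22 of them. Their median events per read were 0.537 and 0.565.

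A few very long clusters lay outside annotated genes without being near-copies, 27 with RNase I 0.05/0.05, 2 with 0.1/0.025 and 2 with 0.05/0.025. Of these, 19, 1 and 0 started within 10000 nt downstream of an annotated gene on the same strand, and 3, 1 and 0 within 1000 nt. A cluster of 615 nt with 392 reads lay 106 nt downstream of ZNF800, a zinc finger gene, at chr7:127346070-127346684 on the minus strand in the RNase I 0.05/0.05 library. Another of 618 nt with 535 reads at chr1:68448916-68449533 on the plus strand had its nearest annotated upstream gene, COX6B1P7, at a distance of 166294 nt, and in the RNase I 0.1/0.025 library a cluster of 501 nt with 172 reads lay there at chr1:68448966-68449466. These genes were named after their values were seen.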
